A study of Homo sapiens with 6 samples.

Results

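Hypoxia-inducible genes were followed in SKBR3 cells that overexpressed CDCP1 and in their GFP controls. They were represented by 7 probes for 6 genes, out of 47231 probes on the Illumina bead arrays: 2 for VEGFA and 1 each for CA9, BNIP3, ADM, NDRG1 and DDIT4. The probes were chosen by ID, as well-known genes that cells induce when oxygen is short. The pairing of probe IDs with genes came with that choice and was not checked against an annotation of the array, so each value below belongs first to its probe. SKBR3 is a long-established breast cancer cell line in which ERBB2, the gene of the receptor HER2, is amplified. CDCP1 spans the cell membrane and signals through SRC family kinases. SKBR3 cells labelled as overexpressing CDCP1 gave 3 arrays, set against 3 arrays of SKBR3 control cells whose titles name GFP, a fluorescent protein. The labels give the culture only as in vitro, with no oxygen level, treatment or time, and do not say whether the overexpressing cells were a clone or a pool. The titles number experiments 1 to 3 in each group without saying that they were separate cultures, so the p-values rest on a spread between arrays that may be no more than technical.

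Cells sense oxygen mainly through the hypoxia-inducible factors (HIF). With oxygen present, prolyl hydroxylases mark the HIF alpha subunit, the VHL ubiquitin ligase recognises the mark and the subunit is degraded. When oxygen falls, the alpha subunit persists, pairs with ARNT and binds short hypoxia response elements, whose core is ACGTG or GCGTG. Growth factor receptors, HER2 among them, can also raise HIF output in the presence of oxygen. The products of the genes described here serve secretion and vessel growth (VEGFA, ADM), control of pH (CA9), removal of mitochondria (BNIP3) and restraint of growth (NDRG1, DDIT4).

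In GRCh38.p14, RefSeq places VEGFA on chromosome 6 from 43770211 to 43786487 and CA9 on chromosome 9 from 35673928 to 35681159. BNIP3 lies on chromosome 10 from 131967684 to 131981923, and DDIT4 on the same chromosome from 72273924 to 72276036. ADM lies on chromosome 11 from 10305073 to 10307397. The position of each probe within its gene was not used here.

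The sequences below show the HIF core in its setting upstream of the genes. They come from the RefSeq promoter table (build GRCh38.p14), which held an entry for 4 of the 6 genes (CA9, BNIP3, ADM and DDIT4). VEGFA and NDRG1 had no entry. The search covered the 250 bases before each gene's annotated start for ACGTG and GCGTG on both strands, so that CACGT and CACGC mark a core on the opposite strand. Each window is printed 5′ to 3′ on the gene's own strand, around the ACGTG core nearest the start or, for ADM, its GCGTG core. Capitals mark every match, and in BNIP3 an ACGTG match on each strand overlaps within CACGTG.
CA9, chr9:35673890-35673927, plus strand: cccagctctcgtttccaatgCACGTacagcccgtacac
BNIP3, chr10:131982032-131982076, minus strand: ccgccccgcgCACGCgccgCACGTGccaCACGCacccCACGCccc
ADM, chr11:10304952-10304996, plus strand: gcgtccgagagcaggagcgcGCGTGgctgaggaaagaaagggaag
DDIT4, chr10:72273779-72273823, plus strand: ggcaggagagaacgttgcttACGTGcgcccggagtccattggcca
The core lay within 18 bases of the annotated start in CA9. Over the searched stretch, BNIP3 held 2 ACGTG and 4 GCGTG matches, DDIT4 held 1 and 2, CA9 held 1 ACGTG match and ADM held 1 GCGTG match. Such short motifs are common: ACGTG was found before 18.5% of 35116 genes, GCGTG before 32.2% and either before 43.2%. A match describes the letters and is no evidence of HIF binding in these cells.

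None of the hypoxia-inducible probes passed the test between CDCP1-overexpressing and GFP control cells. With limma and Benjamini-Hochberg adjustment over the 31540 probes above an estimated background, 0 of 7 were called at an adjusted p of 0.05, where 5.25% of all tested probes were (2.61% higher and 2.64% lower in CDCP1 cells). The lowest adjusted p was 0.217 (BNIP3), and 1 of the 7, also BNIP3, had an unadjusted p under 0.05, against 17.1% of all tested probes. The estimates had no common direction: 3 probes were above 0 and 4 below. Their median log2 change was -0.044, beside -0.0040 over all tested probes. The 95% intervals placed bounds on the probe signals, given a spread between arrays that may be only technical. In this fit no interval reached a 2-fold change in either direction. For a probe near background, such as that of CA9, the interval does not bound the fold of the transcript. The lowest bound was a ratio of 0.607, for the VEGFA probe ILMN_2375879, and the highest was 1.22, shared by ADM and DDIT4. The bound for ILMN_2375879 depends on how limma pools variances over probes. Its SE was 0.18 in this fit and 0.26 with trend and robust variances, so its interval would be wider there.

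**Figure D1:**
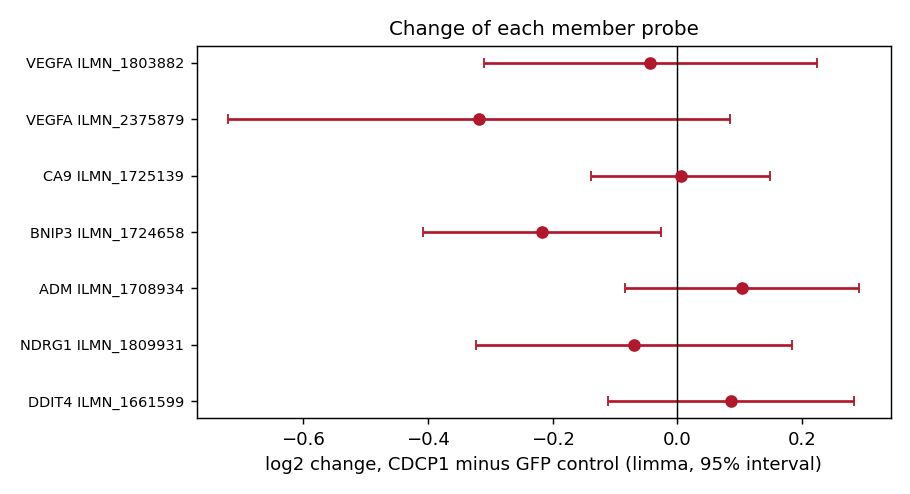
Log2 change of each hypoxia-inducible probe, CDCP1 minus GFP control (points), with the 95% interval from limma (bars, 3 arrays a group). The interval of BNIP3, -0.41 to -0.03, was the only one that did not cross 0, and the VEGFA probe ILMN_2375879 had the widest interval.

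All 7 probes lay above the background limit of 6.68 on all 6 arrays. After the authors' processing, 65.4% of all probes exceeded that limit on each array. Normalization between arrays evens out this share, so it does not show that the arrays were alike. The SD of the log2 difference over tested probes was 0.129 to 0.197 for pairs of CDCP1 arrays. It was 0.119 to 0.139 for pairs of GFP arrays and 0.153 to 0.235 for pairs across groups. The transcript of CDCP1 itself was not analysed here, so the overexpression label was not checked, and neither were markers of the line.

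VEGFA, the secreted growth factor that drives new blood vessels, was represented by 2 probes, and both stood apart on the same array. For ILMN_2375879 the log2 signal was 7.59, 8.41 and 8.49 in CDCP1 replicates 1, 2 and 3, against 8.47, 8.51 and 8.46 in GFP replicates 1, 2 and 3. CDCP1 replicate 1 was far below the other 5 arrays, which lay close together, and CDCP1 replicate 3 lay within the range of the controls. The means were 8.16 ± 0.50 in CDCP1 cells and 8.48 ± 0.030 in GFP cells (SD, n = 3 each). CDCP1 minus GFP was -0.32 on the log2 scale, with an SE of 0.18, a 95% interval of -0.72 to 0.08 and an adjusted p of 0.443 in limma. Without CDCP1 replicate 1 it was -0.03 (limma adjusted p = 0.876), so nearly all of the difference came from that array. Without CDCP1 replicate 3 it was -0.48 (limma adjusted p = 0.169).

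The other VEGFA probe, ILMN_1803882, read 7.04, 7.58 and 7.53 in CDCP1 replicates 1, 2 and 3, against 7.49, 7.34 and 7.44 in GFP replicates 1, 2 and 3. Here too CDCP1 replicate 1 was the lowest of the 6 arrays, while CDCP1 replicates 2 and 3 lay above all 3 controls. The means were 7.38 ± 0.30 in CDCP1 cells and 7.42 ± 0.079 in GFP cells (SD, n = 3 each). The fitted log2 change of -0.04 (SE 0.12) had a 95% interval of -0.31 to 0.22 and a limma adjusted p of 0.926. Without CDCP1 replicate 1 the estimate changed sign to 0.13 (limma adjusted p = 0.367), and without any other single array it ran from -0.14 to -0.0082.

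Few tested probes were as low on CDCP1 replicate 1, relative to the rest of its group, as the 2 VEGFA probes. Relative to the mean of CDCP1 replicates 2 and 3, that array differed by -0.86 on the log2 scale for ILMN_2375879 and by -0.51 for ILMN_1803882. Only 10 of the 31540 tested probes, ILMN_2375879 included, were at least as far below on that array, and 103 were as far below as ILMN_1803882 or farther. The array and the low side were both chosen after seeing the values, and the other arrays were not ranked in this way. Counted in either direction, 66 probes were at least as far off as ILMN_2375879 and 449 as ILMN_1803882. The spread of ILMN_2375879 within the CDCP1 group exceeded that of 99.7% of tested probes, dim ones included, while its spread within the GFP group exceeded only 13.1%. The values were already normalized, so rescaling by quantiles, medians or cyclic loess had little left to change and is a weak check. After it, the difference of CDCP1 replicate 1 was between -0.86 and -0.85 for ILMN_2375879 and between -0.51 and -0.50 for ILMN_1803882. After a normexp background correction it was -1.03 and -0.70. CDCP1 replicate 1 was also the array with the lowest quality weight in limma, 0.382, where the others had 0.927 to 1.51. The part of array quality in the low VEGFA values was not tested.

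The 2 VEGFA probes did not follow each other on the other arrays. Over the 6 arrays, which fall into 2 groups of 3, Pearson's r was 0.87 (exact permutation p = 0.157) and Spearman's rho was 0.086 (exact permutation p = 0.919), both two-sided and the only relation between probes that was computed. Without CDCP1 replicate 1 and GFP replicate 2, the arrays farthest from the median of ILMN_1803882, r was -0.50. Left out alone, a choice made after seeing the data, CDCP1 replicate 1 took r to -0.76 and GFP replicate 2 took it to 0.96, so the high r rested on CDCP1 replicate 1. ILMN_2375879 minus ILMN_1803882 was 0.55, 0.83 and 0.96 in CDCP1 replicates 1, 2 and 3, against 0.97, 1.18 and 1.02 in GFP replicates 1, 2 and 3. The groups did not overlap in this difference, and their means differed by -0.27 (two-sided exact permutation p = 0.1, the smallest that 3 arrays against 3 allow). Without CDCP1 replicate 1 that difference of means was -0.16.

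**Figure D2:**
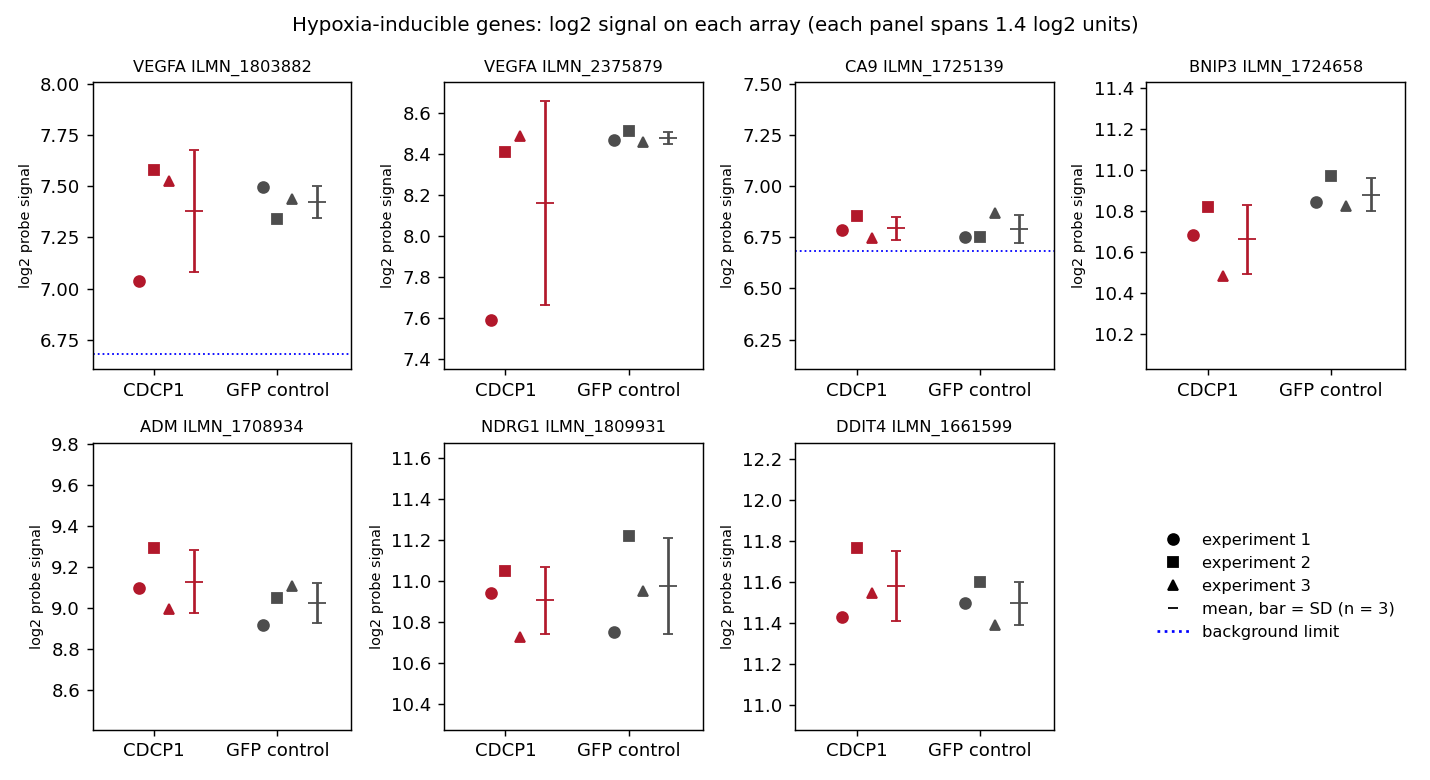
Log2 signal of each hypoxia-inducible probe on each array, with CDCP1 arrays on the left of each panel and GFP control arrays on the right. Symbols give the experiment number, horizontal bars the mean and error bars the SD (n = 3), and the dotted line marks the background limit of 6.68 where it falls inside the panel. Experiment 1 of the CDCP1 group is the lowest array for both VEGFA probes, at 7.04 and 7.59, and BNIP3 is the only gene whose groups do not overlap.

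ADM encodes adrenomedullin, a secreted peptide that widens vessels and acts on their lining. Its probe, ILMN_1708934, read 9.09, 9.29 and 8.99 in CDCP1 replicates 1, 2 and 3, against 8.92, 9.05 and 9.11 in GFP replicates 1, 2 and 3. CDCP1 replicate 2 was the highest array and GFP replicate 1 the lowest, and the others interleaved. The means were 9.13 ± 0.15 in CDCP1 cells and 9.02 ± 0.098 in GFP cells (SD, n = 3 each). ADM differed by 0.10 on the log2 scale (SE 0.085), with a 95% interval of -0.08 to 0.29 and a limma adjusted p of 0.647, so an ADM increase of more than 1.22-fold lay outside the interval. Single arrays moved it: it was 0.020 without CDCP1 replicate 2, 0.049 without GFP replicate 1 and 0.17 without CDCP1 replicate 3.

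CA9 encodes carbonic anhydrase IX, a cell surface enzyme that helps tumour cells export acid and a widely used marker of hypoxia in tumours. Its probe, ILMN_1725139, lay just over the background limit on every array. It read 6.78, 6.86 and 6.74 in CDCP1 replicates 1, 2 and 3, against 6.75, 6.75 and 6.87 in GFP replicates 1, 2 and 3. The groups overlapped throughout, and the means were 6.79 ± 0.056 in CDCP1 cells and 6.79 ± 0.070 in GFP cells (SD, n = 3 each). Their difference was 0.0055 (SE 0.065), with a 95% interval of -0.14 to 0.15 and a limma adjusted p of 0.984. It was below 0 without CDCP1 replicate 2 (-0.025), GFP replicate 1 (-0.015) or GFP replicate 2 (-0.015). Differences are compressed this near to background, so the narrow interval bounds the probe's signal and not the fold of the transcript.

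BNIP3, which marks mitochondria for removal by autophagy, had the lowest p of the genes described here. Its probe, ILMN_1724658, read 10.68, 10.82 and 10.48 in CDCP1 replicates 1, 2 and 3, against 10.84, 10.97 and 10.82 in GFP replicates 1, 2 and 3. All 3 CDCP1 arrays were below all 3 GFP arrays, but CDCP1 replicate 2 and GFP replicate 3 were only 0.0055 apart. The means were 10.66 ± 0.17 in CDCP1 cells and 10.88 ± 0.081 in GFP cells (SD, n = 3 each). BNIP3 was the 1 of 7 probes whose groups did not overlap, and this held for 21.9% of all tested probes in either direction and for 11% with CDCP1 lower. For BNIP3 the fit gave a log2 change of -0.22 (SE 0.087) and a 95% interval of -0.41 to -0.03, a ratio of 0.860, with a limma p of 0.029 before adjustment and 0.217 after it. Between arrays of the same experiment number the difference was -0.16, -0.15 and -0.34 for experiments 1, 2 and 3. Since the groups did not overlap, any matching of arrays gives only negative differences, so their shared sign adds no support. Single arrays of both groups moved the estimate. It was -0.13 without CDCP1 replicate 3 (limma adjusted p = 0.451) and -0.17 without GFP replicate 2 (limma adjusted p = 0.519). Without CDCP1 replicate 2 it was -0.29 (limma adjusted p = 0.126).

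NDRG1, a cytoplasmic protein known as a suppressor of metastasis and induced by hypoxia and by differentiation, varied more among the controls than between the groups. The gene lies on chromosome 8 from 133237175 to 133297252 (GRCh38.p14, RefSeq). Its probe, ILMN_1809931, read 10.94, 11.05 and 10.72 in CDCP1 replicates 1, 2 and 3, against 10.75, 11.22 and 10.95 in GFP replicates 1, 2 and 3. GFP replicate 2 was the highest of all 6 arrays, and the groups overlapped. The means were 10.90 ± 0.16 in CDCP1 cells and 10.97 ± 0.24 in GFP cells (SD, n = 3 each). That control spread exceeded that of 99.0% of tested probes, dim ones included. The sign of NDRG1 was not settled. Its log2 change of -0.07 (SE 0.12) had a 95% interval of -0.32 to 0.18 and a limma adjusted p of 0.856, and without GFP replicate 2 it was 0.05 (limma adjusted p = 0.899). Without CDCP1 replicate 3 it was 0.021 (limma adjusted p = 0.956).

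DDIT4, also called REDD1, restrains the growth kinase complex mTORC1 through the TSC proteins when oxygen or energy is short, and is raised by other stresses as well. Its probe, ILMN_1661599, read 11.43, 11.77 and 11.55 in CDCP1 replicates 1, 2 and 3, against 11.50, 11.60 and 11.39 in GFP replicates 1, 2 and 3. CDCP1 replicate 2 was the highest array, and the other 5 interleaved. The means were 11.58 ± 0.17 in CDCP1 cells and 11.50 ± 0.10 in GFP cells (SD, n = 3 each). DDIT4 differed by 0.09 on the log2 scale (SE 0.090), with a 95% interval of -0.11 to 0.28 and a limma adjusted p of 0.742. Without CDCP1 replicate 2 its log2 change was -0.0063 (limma adjusted p = 0.987), without GFP replicate 3 it was 0.034, and without CDCP1 replicate 1 it was 0.16.

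**Figure D3:**
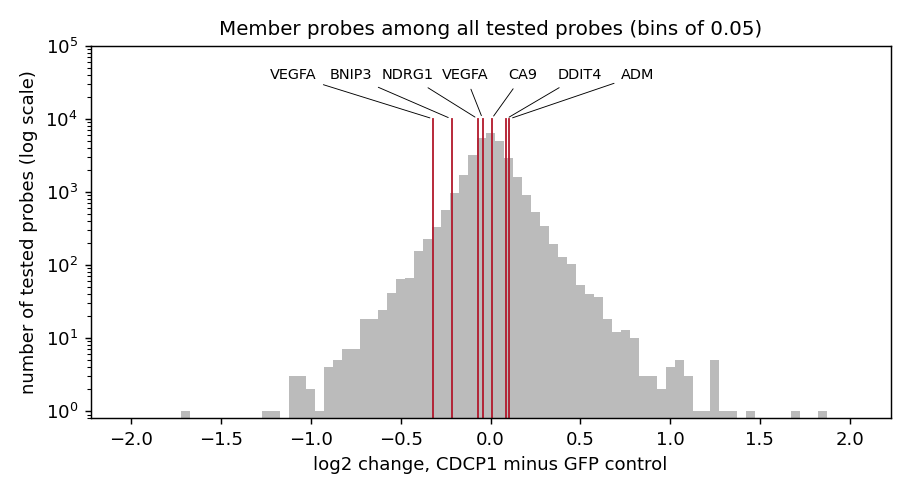
Number of the 31540 tested probes in bins of log2 change, CDCP1 minus GFP control, on a logarithmic vertical axis, with the hypoxia-inducible probes as vertical lines. The lines run from -0.32 (VEGFA, ILMN_2375879) to 0.10 (ADM) and lie within the range of the distribution. The absolute change of VEGFA ILMN_2375879 exceeded that of 95.6% of tested probes.

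Among all tested probes, the size of the change was unremarkable for most of these genes. The absolute log2 change of CA9 exceeded that of 4.56% of tested probes, VEGFA ILMN_1803882 34.6%, NDRG1 51.3%, DDIT4 59.6% and ADM 67.0%. BNIP3 exceeded 89.5% and VEGFA ILMN_2375879 95.6%, the second because of CDCP1 replicate 1. Within the GFP group the spread was wider than that of most probes except for VEGFA ILMN_2375879 (13.1%). The share exceeded there was 53.1% for CA9, 62.2% for VEGFA ILMN_1803882, 63.7% for BNIP3, 76.3% for ADM, 79.4% for DDIT4 and 99.0% for NDRG1. The spread within the CDCP1 group was also wider than that of most probes for 6 of the 7. It exceeded 84.0% of tested probes for ADM, 86.9% for NDRG1, 87.7% for BNIP3, 88.3% for DDIT4 and 98.2% for VEGFA ILMN_1803882, and only for CA9, near background, was it low, at 26.7%. All these shares are over tested probes of any signal, dim ones included, and differences are compressed near background. Probes of like signal were not compared, so a high share does not set these genes apart from other bright probes.

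**Figure D4:**
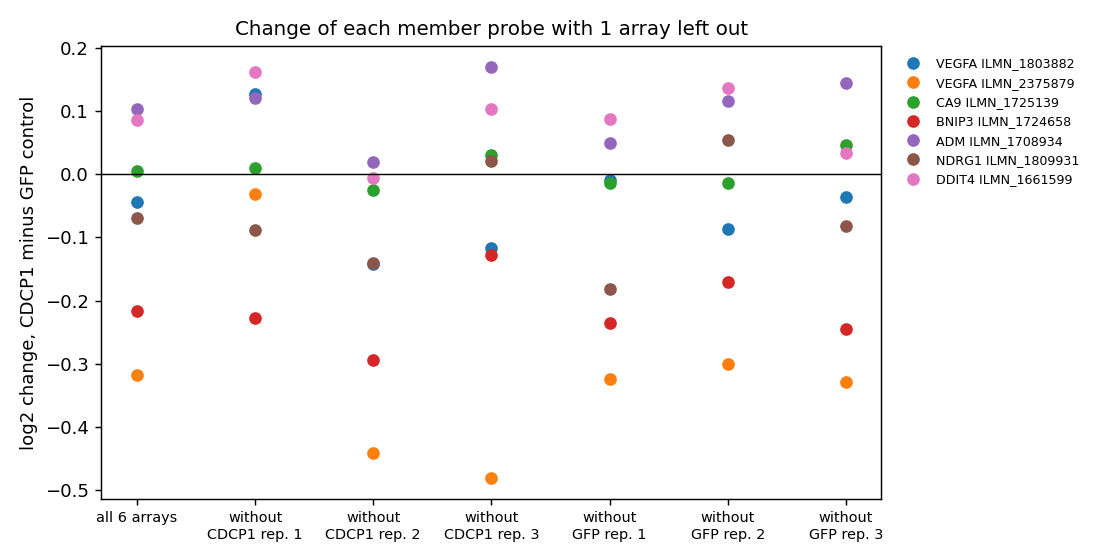
Log2 change of each hypoxia-inducible probe, CDCP1 minus GFP control, with all 6 arrays and with each array left out in turn. Only BNIP3 and VEGFA ILMN_2375879 stayed below 0 and only ADM stayed above 0 in all 7 fits, and without CDCP1 replicate 1 VEGFA ILMN_2375879 moved to -0.03.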

How the data were processed

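Biotin-labelled cRNA from total RNA was hybridised to 6 arrays on 1 slide. The authors read them with GenomeStudio, per the submitters' processing notes. Both deposited tables hold the same log2 signals for 47231 probes (0 probes differed), although one is named non-normalized. They run from 6.45 to 14.35 and the array medians lie within 0.00052, so the authors had normalized them before deposit. No label or file header names the method, and folds are exact only if the scale is log2. These values were kept. Background was centred on the mode of all values (6.62, kernel bandwidth 0.01), with an SD of 0.041 from values below it. Probes over 1.645 SDs above the mode (6.68) on at least 3 arrays were tested: 31540 probes, 66.8%. CDCP1 minus GFP was fitted with lmFit and eBayes (limma 3.58.1, R 4.3.3), two-sided, with no block or trend. The median 95% half-width was 0.16. Precision is limited by the number of arrays. The fit was tested on simulated data.

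The members and lists were chosen with earlier results of these data known. All 7 probes are named by rule. Lists of HIF machinery, glycolysis and other pathway genes, the CDCP1 transcript, cell type markers and the most alike genes were planned but not analysed here, since no table pairing probes with genes was used. The deviations of arrays with the same experiment number correlated at -0.27, -0.30 and 0.16 over probes, and the main fit did not treat the numbers as pairs. Alternatives covered scaling, background, the filter, the variance model, array weights, a replicate block and leaving out each array.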

Additional observations from a re-analysis of the deposited data

How the results depend on the processing

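None of the 7 probes was called in any of the 16 fits with another setting, which gave 112 probe results. Adjusted p ran from 0.126 to 0.993, the lowest for BNIP3 without CDCP1 replicate 2. BNIP3, ADM and VEGFA ILMN_2375879 kept their direction in all 16, with log2 changes from -0.29 to -0.13, from 0.02 to 0.17 and from -0.48 to -0.03. The filters, the variance model, the replicate block and the other deposited table leave the estimate itself unchanged. No sign could turn in those settings, so they say nothing on direction. Of their 16 results each, CA9 changed sign in 3, NDRG1 and VEGFA ILMN_1803882 in 2 and DDIT4 in 1. With array weights VEGFA ILMN_1803882 was 0.060. CDCP1 replicate 1, the lowest array for that probe, had the lowest weight, 0.382. The cause of its low value there was not tested. Leaving out 1 array moved VEGFA ILMN_1803882 from -0.14 to 0.13 and CA9 from -0.025 to 0.046. DDIT4 then ran from -0.0063 to 0.16 and NDRG1 from -0.18 to 0.054. The count of all called probes, 1655, was 2612 with array weights and 1079 with the replicate block. It was 559 at an adjusted p under 0.01 and 198 with a 1.5-fold limit, which are stricter rules. It was 613 to 2132 with 1 array left out, lowest without GFP replicate 3 and highest without CDCP1 replicate 1. Scaling, normexp, the filter and the variance model kept it between 1287 and 1663. The block left every probe of the 7 uncalled (BNIP3 adjusted p = 0.172). The other deposited table holds the same values and tests nothing. The gene list counts and the CDCP1 transcript were not run. CA9, just above background, is limited by its signal.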

Other observations

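The highest array of both groups was experiment 2 for 3 of the 7 probes, BNIP3, NDRG1 and DDIT4, a pattern noticed in the values. BNIP3 reached 10.82 in CDCP1 replicate 2 and 10.97 in GFP replicate 2. NDRG1 reached 11.05 in CDCP1 replicate 2 and 11.22 in GFP replicate 2. DDIT4 reached 11.77 in CDCP1 replicate 2 and 11.60 in GFP replicate 2. Experiment 2 was the highest in both groups for 8.51% of all tested probes. That number was picked after seeing the values: the same experiment number, whichever it was, was the highest in both groups for 30.7% of tested probes, beside the same 3 of the 7 here. Over all probes the deviations of arrays with the same number correlated at -0.27, -0.30 and 0.16, which leaves a pairing unsettled. With the replicate block the SE fell from 0.087 to 0.072 for BNIP3, from 0.115 to 0.091 for NDRG1 and from 0.090 to 0.075 for DDIT4. Among the 7 probes it rose only for CA9, from 0.065 to 0.074. A shared culture condition was not tested.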
